A study of Microtus ochrogaster with 51 samples.

Results

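Among the 23038 gene identifiers measured in prairie voles (Microtus ochrogaster), 6 stand where the mitochondrial genome encodes subunits of respiratory complexes III, IV and V. They were chosen by identifier, from their place in a run of 37 consecutive identifiers that appears to follow the vertebrate mitochondrial gene order. The deposited tables give no gene names, so the names used here are inferred. ENSMOCG00000000016, ENSMOCG00000000019 and ENSMOCG00000000023 are called COX1, COX2 and COX3. ENSMOCG00000000035 is called CYTB, and ENSMOCG00000000021 and ENSMOCG00000000022 are called ATP8 and ATP6.

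Each library held polyadenylated RNA from the nucleus accumbens, a reward region of the ventral striatum, of 1 vole that had been housed with an opposite-sex mate. The 51 libraries fall into 3 treatments. Voles that had lived with the mate for 2 weeks gave 20 (10 of each sex), here called 2-week voles. Voles isolated for 4 weeks after the same 2 weeks of pairing gave 25 (12 from females, 13 from males), here called separated. The remaining 6 came from voles kept together for 6 weeks (3 of each sex). All groups were therefore mated voles, and none was unpaired. Both partners of a pair carry the same replicate number, and 42 of the libraries form 21 complete pairs in the table of normalized counts.

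The mitochondrial genome encodes a small set of proteins, all of them subunits of the respiratory chain or of ATP synthase, and both strands are copied as long transcripts that are cut into single messengers. Complex IV, or cytochrome c oxidase, passes electrons to oxygen; complex III, or cytochrome bc1, feeds it through cytochrome c; complex V uses the resulting proton gradient to make ATP. Neurons depend heavily on this oxidative ATP supply. In bulk tissue, fewer cells of a type and less RNA per cell cannot be told apart.

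The inferred names were checked against relative length. Reads per TPM (a level corrected for gene length and library total) is proportional to the length that the authors' software used for a gene, and it was taken relative to COX1. Its median over 42 libraries was 0.699 for CYTB, 0.431 for COX3, 0.356 for COX2, 0.354 for ATP6 and 0.0401 for ATP8, whose values ran from 0.0377 to 0.0442. Of the 13 positions of protein genes, all 13 fell in the textbook order of length, and the 19 of 22 transfer RNA positions with any read had relative lengths of at most 0.00739, some of them from 1 or 2 libraries. The comparison was limited to protein positions after the values were seen, because the position of the large ribosomal RNA had 0.981 and lay just below COX1. Abundance was as high as such genes would need: COX1 was the most abundant of all identifiers in 42 of 42 libraries, and 5 of the 6 were among the 11 most abundant. The values do not go against the inferred names, but no sequence or annotation was at hand to settle them.

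The reads recovered from the normalized table numbered 20067514 to 37737711 on genes per library (median 27487240). The 37 identifiers together took between 13.2% and 41.0% of a library's reads (median 27.1%), and the 6 described here took 50.3% to 59.3% of that (median 52.9%). All 6 passed the filter on low values, a mean normalized count of at least 10, as did 17 of the 37. Copies of mitochondrial sequence in the nuclear genome can share reads with these genes, and how the counting treated such reads is not given in the sources used here. The 3 mated voles listed in the TPM table only, apart from the 6-week voles, 2-week female 15, 2-week male 15 and separated male 23, gave libraries with low levels of these genes, below all others except for COX3 in separated male 23. They are described separately at the end, and the tests on TPM are given with and without them.

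The summed share of the 6 genes varied widely between animals of 1 group. In 2-week females it ran from 7.11% to 19.7% of reads on genes (median 13.1%, mean 12.9% ± 3.49, SD, n = 9), and in 2-week males from 10.7% to 19.4% (median 14.02%, mean 14.8% ± 2.95, SD, n = 9). Among separated voles it ran from 9.51% to 21.4% in females (median 15.4%, mean 15.1% ± 3.73, SD, n = 12). The separated males ran from 10.9% to 19.03% (median 14.99%, mean 15.1% ± 2.45, SD, n = 12). The lowest library was 2-week female 2 and the highest separated female 24. The 4 groups overlapped over most of their range, and the widest 95% Wilson interval reached only 0.0169 percentage points to either side, which covers counting error alone.

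**Figure D1:**
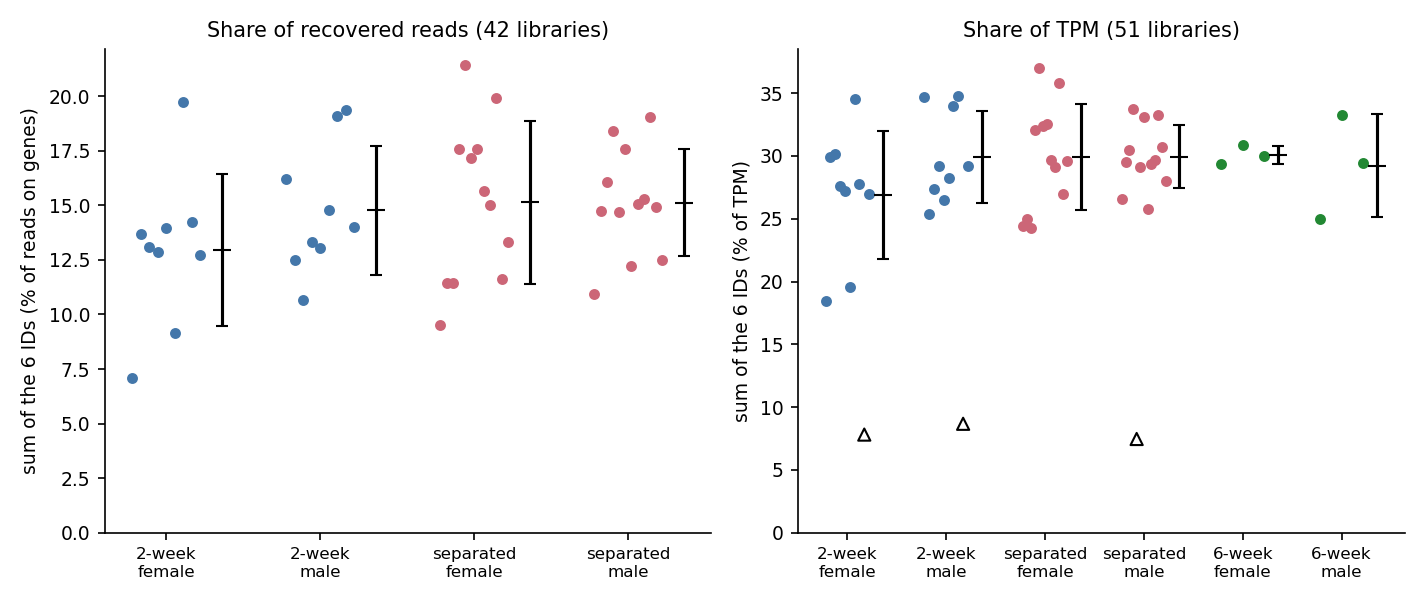
Summed share of the 6 genes in each library, as a percentage of recovered reads on genes (left, 42 libraries) and of TPM (right, 51 libraries). Points are single voles, bars give the mean ± SD without the 3 libraries drawn as open triangles, and those 3 lie at 7.47% to 8.68% of TPM while the other 48 lie at 18.4% to 37.02%.

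By share of reads, COX1 led the set. It encodes the catalytic core of complex IV and took 2.66% to 7.78% of a library's reads (median 5.19%). COX2, which receives electrons from cytochrome c, took 0.804% to 2.31% (median 1.53%), and COX3, the other core subunit, took 1.19% to 3.63% (median 2.46%). Among the complex IV genes the order COX1, COX3, COX2 by share of reads held at the lowest, median and highest values alike.

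CYTB, the electron-carrying subunit of complex III encoded by this genome, took 1.04% to 2.96% of reads (median 2.07%). ATP6, which forms part of the proton channel of complex V, took 1.23% to 4.31% (median 2.73%). ATP8, a small membrane subunit of the same complex, took 0.130% to 0.482% (median 0.319%). The low share of ATP8 follows its short length, since shares of reads are not corrected for length. In vertebrates ATP8 and ATP6 overlap and lie on 1 messenger, so how reads on the overlap were assigned could shift counts between them, and that assignment is not given in the sources used here.

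Per length, the order was different. In TPM, over the 48 libraries without the 3 that stand apart, ATP8 (6.90% ± 1.18 of TPM, SD, n = 48) and ATP6 (6.75% ± 1.048) were highest and did not differ beyond their spread, with ATP8 above ATP6 in 21 of 48 libraries. COX3 followed at 4.91% ± 0.735, below ATP6 in 48 of 48 libraries, and COX1 at 4.54% ± 0.634, below COX3 in 39 of 48. COX2 came next with 3.74% ± 0.574, below COX1 in 48 of 48. CYTB was lowest with 2.49% ± 0.345, below COX2 in 48 of 48. By TPM the complex V genes thus had the highest levels and the complex III gene the lowest. The place of ATP8 in this order rests on the very short length used for it, 0.0401 relative to COX1. It also rests on how reads on its overlap with ATP6 were assigned. Neighbours changed places in some libraries, ATP8 with ATP6 and COX3 with COX1. Over all 51 libraries the means kept this order, at 6.50% ± 1.99 for ATP8, 6.47% ± 1.53 for ATP6, 4.78% ± 0.875 for COX3, 4.39% ± 0.861 for COX1, 3.56% ± 0.919 for COX2 and 2.38% ± 0.569 for CYTB (SD, n = 51).

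The 6 genes moved together from library to library, but ATP8 less tightly than the rest. Within groups, the log2 level of a single gene had an SD of 0.43 (ATP8) to 0.48 (COX2). The log2 ratio of any 2 genes other than ATP8 had an SD of only 0.10 (COX1 to CYTB) to 0.14 (COX3 to CYTB), and their levels correlated with r = 0.952 to 0.978 over 42 libraries. Ratios that included ATP8 had an SD of 0.24 (to CYTB) to 0.34 (to COX3), with r = 0.728 to 0.861. These correlations are descriptions, since all 6 values of a library share its scaling.

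In reads, COX1 exceeded COX2 by 2.89- to 4.08-fold (median 3.42-fold), ATP6 by 1.59- to 2.20-fold (median 1.92-fold), COX3 by 1.71- to 2.54-fold (median 2.14-fold) and CYTB by 2.22- to 3.04-fold (median 2.61-fold). Its excess over ATP8 ranged further, from 11.4- to 23.9-fold (median 16.97-fold). The mean log2 read ratio of ATP8 to COX1 was -4.09 ± 0.28 in females and -4.03 ± 0.33 in males after 2 weeks (SD, n = 9 each), and -4.04 ± 0.23 in females and -4.05 ± 0.17 in males after separation (SD, n = 12 each). That of COX3 to COX1 was -1.10 ± 0.15, -1.18 ± 0.13, -1.08 ± 0.09 and -1.07 ± 0.10 in the same order. Between separated and 2-week voles the mean log2 ratio to COX1 differed by 0.062 for COX3, 0.056 for ATP6, 0.012 for COX2, 0.0095 for ATP8 and 0.0062 for CYTB with sexes pooled. By sex, the mean log2 ratio of ATP6 to COX1 was -0.93 ± 0.12 in females and -0.98 ± 0.056 in males after 2 weeks (SD, n = 9 each), and -0.93 ± 0.10 in females and -0.87 ± 0.12 in males after separation (SD, n = 12 each). In males the ATP6 means of 2-week and separated voles lay more than 1 SD of the 2-week males apart, but less than 1 SD of the separated males. The COX3 means lay more than 1 SD of the separated males apart, but less than 1 SD of the 2-week males. These differences were not tested.

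Part of the variation went with library properties. A fragment index was computed from genes outside the 37 with at least 50 reads in each of the 42 libraries. It is the log2 reads per TPM of the 201 shortest against the longest. The index is higher where short genes had more reads for the same TPM. Over 42 libraries the log2 read ratio of ATP8 to COX1 rose with this index (r = 0.722, Spearman rho = 0.727, both adjusted permutation p = 0.000187, raw p = 1e-05, the smallest that 100000 resamples can give). Both measures contain the length used for short genes against that for long ones, so part of this relation is built in. The TPM ratio, which is free of that term, was not set against the index. Without the 2 libraries farthest from the median index r was 0.732, and within cohorts 2, 3 and 4 it was 0.850, 0.854 and 0.437 (cohort 1 has 4 libraries, too few for a value).

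The ratio of COX3 to COX1 fell with the index (r = -0.444, adjusted permutation p = 0.00791; rho = -0.387, adjusted permutation p = 0.0282). Without the 2 farthest libraries r was -0.422, and within the 3 cohorts it was -0.600, -0.535 and -0.226. For COX2, ATP6 and CYTB the ratio to COX1 had r between -0.176 and 0.122 with the index, and none passed the test. In all, 28 relations were computed for this report with Benjamini-Hochberg adjustment over both coefficients, the 10 on ratios were added after the data had been seen, and the 42 libraries were treated as separate although they form 21 pairs.

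Levels were lower in libraries with more reads, except for ATP8. The log2 normalized count of COX3 had r = -0.632 with log2 reads on genes (adjusted permutation p = 0.00028; rho = -0.627, adjusted p = 0.000187), -0.555 without the 2 farthest libraries, and -0.651, -0.521 and -0.712 within cohorts 2, 3 and 4. COX1, COX2, ATP6 and CYTB had r from -0.602 to -0.545 and passed the same permutation test, with within-cohort values from -0.793 to -0.428. ATP8 did not (r = -0.218, adjusted permutation p = 0.285; rho = -0.232, adjusted p = 0.257), and its within-cohort values were 0.099, -0.108 and -0.614.

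Against the fragment index the same 5 genes had r from -0.608 (COX3) to -0.488 (CYTB), with within-cohort values from -0.747 to -0.279, and all 5 passed the permutation test; ATP8 had r = -0.131 (adjusted permutation p = 0.497). Reads on genes and the fragment index themselves correlated with r = 0.831 and cannot be told apart here. The first principal component of all genes tested, which held 33.5% of the variance, had r between 0.572 and 0.711 with the levels of the 5 genes and 0.194 with ATP8. Whether these library properties shaped the group comparisons was tested only as covariates of the fits.

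The first comparison asks whether the 6 genes changed when paired voles lost their partner. None of the 6 passed the test in either sex or with sexes averaged. In the normalized table, separated voles were compared with 2-week voles by limma on log2(normalized count + 1), where a gene was called at a Benjamini-Hochberg adjusted p under 0.05 over 14151 genes. With sexes averaged 465 genes (3.29%) were called and 0 of the 6, with 0 of 6 at an unadjusted p under 0.05. This fit treated partners as separate animals, so its SEs with sexes averaged do not allow for their likeness. With the pair as a block 8 of 14151 genes (0.0565%) were called and 0 of the 6. With sexes averaged edgeR called 491 genes (3.47%) and DESeq2 694 (4.9%), and each called 0 of the 6. All 2-week pairs came from cohorts 1 and 2 and all other voles from cohorts 3 and 4, as the labels number them, so treatment and cohort cannot be told apart.

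In complex IV, COX1 had normalized counts of 638667 to 2414825 in 2-week females (median 1346937) and 846133 to 2621417 in separated females (median 1558499). In males they were 1059358 to 2367722 after 2 weeks (median 1389648) and 1058212 to 2253024 after separation (median 1535456). The ranges overlapped almost fully: in each sex 11 of 12 separated voles lay within the range of the 2-week voles. The log2 difference, separated minus 2-week with sexes averaged, was 0.14 ± 0.14 (SE, limma adjusted p = 0.655).

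COX2 had 192758 to 740820 normalized counts in 2-week females (median 392118) and 244150.1 to 779001 in separated females (median 494741). In males the ranges were 274201 to 687087 (median 382352) and 290740.2 to 650553 (median 456517). Of the separated voles, 11 of 12 females and 12 of 12 males lay within the 2-week range. The averaged difference was 0.16 ± 0.14 (SE, limma adjusted p = 0.637).

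COX3 ran from 286143 to 1079213 in 2-week females (median 558633) and from 373172 to 1223781 in separated females (median 789289). In males it ran from 424298 to 1030387 (median 620155) and from 470361 to 1106146 (median 718230). The groups overlapped here too, with 2 separated females and 1 separated male above the 2-week range. Its averaged difference, 0.21 ± 0.14 (SE, limma adjusted p = 0.501), was the largest of the 6.

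CYTB of complex III ran from 248999.8 to 965954 in 2-week females (median 513436) and from 360902 to 997798 in separated females (median 594308). The male ranges were 380089.8 to 855011 (median 522752) and 373862 to 831337 (median 578868). In CYTB 1 separated female lay above and 1 separated male below the 2-week range of its sex. The averaged difference was 0.15 ± 0.14 (SE, limma adjusted p = 0.637).

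In complex V, ATP8 ran from 32234 to 120847 in 2-week females (median 78028) and from 59557 to 149419.9 in separated females (median 81368). In males it ran from 54564 to 144319.8 (median 93213) and from 67731 to 128051 (median 90253). The male groups overlapped fully, while 2 of 12 separated females exceeded all 2-week females. Its averaged difference was 0.15 ± 0.13 (SE, limma adjusted p = 0.605).

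ATP6 ran from 295564 to 1347079 in 2-week females (median 705337) and from 415124 to 1451807 in separated females (median 815726). In males it ran from 533975 to 1120022 (median 704422) and from 544947 to 1201618 (median 809201). All but 1 separated female and 2 separated males lay within the 2-week range. Its averaged difference was 0.20 ± 0.14 (SE, limma adjusted p = 0.524).

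**Figure D2:**
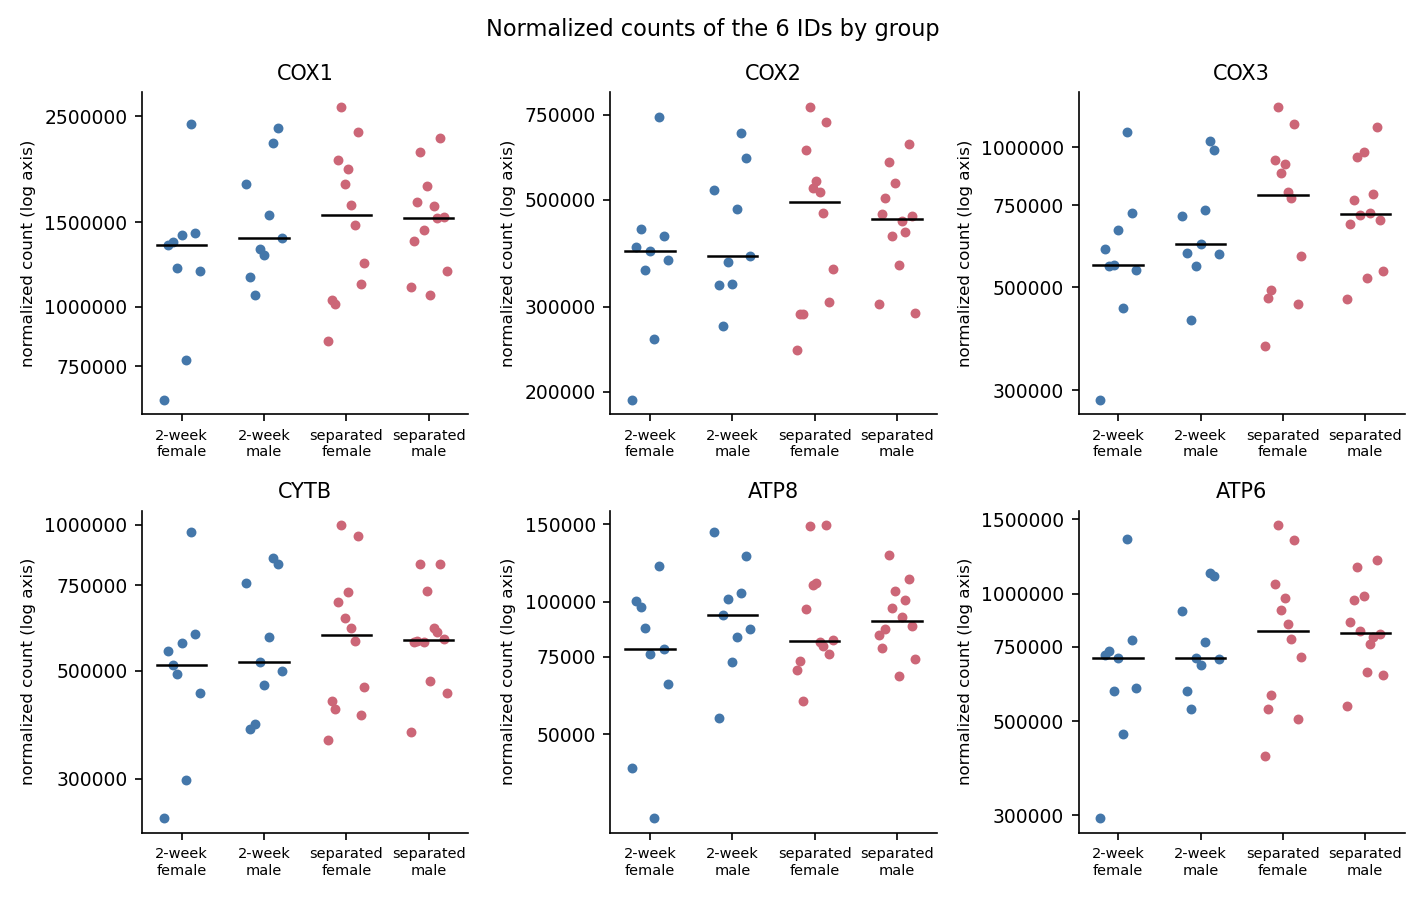
Normalized counts of the 6 genes in 42 voles on log axes, 1 panel per gene. Points are single voles, horizontal lines are group medians, and in every panel the separated and 2-week voles of a sex overlap.

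Sexes were then taken apart. In females all 6 estimates lay above 0, from 0.24 ± 0.20 (CYTB) to 0.33 ± 0.18 (ATP8, SE), with 0 of 6 called against 54 of 14151 genes (0.382%) and limma adjusted p from 0.603 to 0.779. In males they lay from -0.023 ± 0.18 (ATP8) to 0.11 ± 0.20 (COX3, SE), with 0 of 6 called against 0 of 14151 (0%), while 1176 genes had an unadjusted p under 0.05; edgeR called 5 genes and DESeq2 22, again 0 of the 6. The difference between the sexes, male effect minus female effect, was negative for all 6, from -0.35 ± 0.26 (ATP8) to -0.18 ± 0.29 (ATP6, SE), and 0 of 6 were called (1 of 14151 genes, 0.00707%; limma adjusted p = 1.00 for each). Without pair 2 the range was -0.18 to -0.0076. Without cohort 2, which leaves pairs 2 and 8 as the only 2-week pairs, it was -0.62 to -0.44. A different response of females and males was thus not detected, in a fit that did not use the pairing. With the pair as a block 0 of 6 were called as well.

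**Figure D3:**
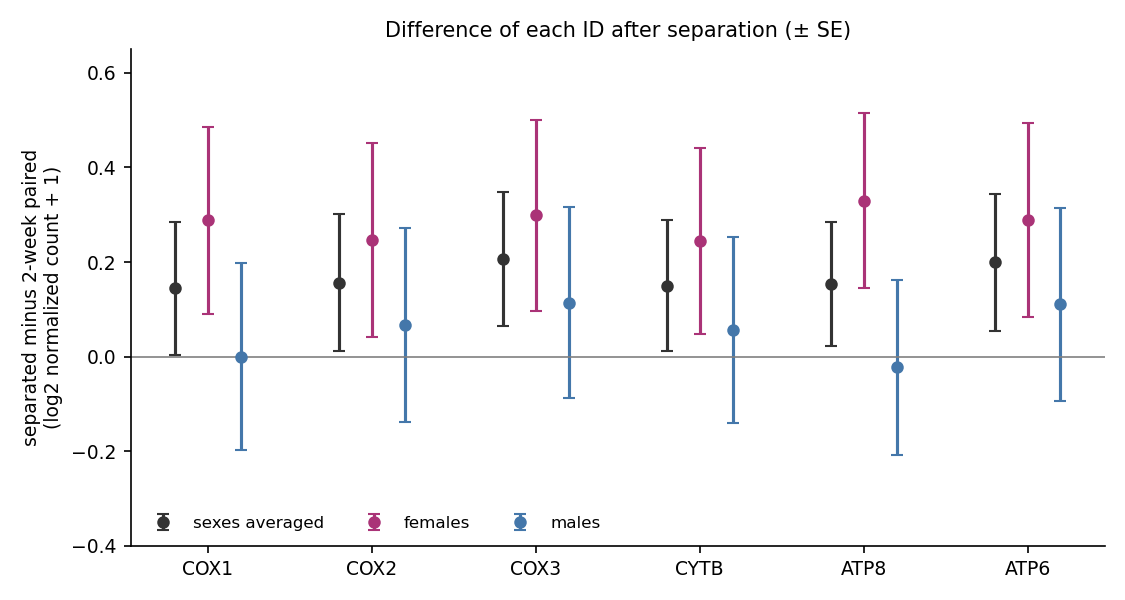
Log2 difference, separated minus 2-week, for each gene with its SE from limma, with sexes averaged and in each sex. Female estimates lie at 0.24 to 0.33 and male estimates at -0.023 to 0.11, and no gene passed the test.

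As a list, the 6 had a median difference of 0.15 with sexes averaged, where the median of all 14151 genes was -0.00225. The 7 complex I genes of the same genome, encoding NADH dehydrogenase subunits, had 0 of 7 called in either direction, 7 of 7 estimates above 0 and a median of 0.21. The 2 ribosomal RNA positions had 0 of 2 called and a median of 0.40. Because the 6 levels rise and fall together, 6 estimates of 1 sign are not 6 separate observations.

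The size of the averaged estimates depended on the cohorts and scaling. Without cohort 2 they ranged from 0.26 to 0.47, without cohort 1 from 0.08 to 0.13 and without cohort 4 from 0.07 to 0.15. Leaving out cohort 2 keeps only pairs 2 and 8 as 2-week voles, and female 2 had the lowest summed share of all. In TPM they ranged from 0.06 to 0.13. Without pair 13, whose female was the highest of the 2-week females in each of the 6 genes, they ranged from 0.21 to 0.30, without pair 12 from 0.07 to 0.19 and without pair 30 from 0.09 to 0.15. Adjusting for the first principal component gave a range from 0.06 to 0.13. In females the range was 0.12 to 0.23 without pair 2, 0.37 to 0.42 without pair 13, 0.48 to 0.77 without cohort 2, 0.12 to 0.29 without cohort 1 and 0.10 to 0.23 without cohort 4. Quantile normalization, which holds the most abundant gene at 1 value and so sets COX1 to 0 by construction, gave -0.13 to 0.05 and turned the sign of COX2, COX3 and CYTB. None of these alternatives called any of the 6.

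No difference between the sexes was detected, in a fit that did not use the pairing of these females and males. With the pair as a block 0 of 6 were called in either treatment. Among 2-week voles the male minus female difference was 0.19 ± 0.22 (COX2) to 0.37 ± 0.20 (ATP8, SE), and among separated voles 0.0063 ± 0.19 (COX2) to 0.07 ± 0.19 (ATP6, SE). In both comparisons 0 of 6 were called, against 3 of 14151 genes (0.0212%) in each, with limma adjusted p = 1.00 for each gene. In separated voles, edgeR, DESeq2 and leaving out cohort 3 turned the sign of COX1, COX2, ATP8, COX3 and CYTB. The 2-week values ranged from 0.45 to 0.67 without cohort 2 (pairs 2 and 8 alone), from 0.07 to 0.34 without cohort 1 and from 0.031 to 0.19 without pair 2.

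Cohorts of 1 treatment were compared as well, where the sign depends only on which cohort is subtracted. Cohort 1 held only 2 pairs. Within 2-week voles, cohort 2 exceeded cohort 1 by 0.14 ± 0.25 (ATP8) to 0.35 ± 0.26 (ATP6, SE), with 0 of 6 called (1 of 14151 genes, 0.00707%; limma adjusted p from 0.450 to 0.739). Within separated voles, cohort 4 exceeded cohort 3 by 0.06 ± 0.18 (ATP8) to 0.18 ± 0.19 (COX3, SE), with 0 of 6 called (0 of 14151 genes, 0%, with 393 at an unadjusted p under 0.05; limma adjusted p = 1.00). These estimates do not pass the test, and they were of the same order as the separation estimates.

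Voles kept with their partner for 6 weeks were compared in TPM, since they are in that table only. Their summed share of TPM was 29.4%, 30.02% and 30.9% in the 3 females and 25.01%, 29.5% and 33.3% in the 3 males. The separated females ranged from 24.2% to 37.02% (mean 29.9% ± 4.25, SD, n = 12), and the separated males without male 23 from 25.8% to 33.7% (mean 29.9% ± 2.51, SD, n = 12; with him 28.2% ± 6.68, n = 13). The 6-week females lay within the range of the separated females, while 1 of the 3 males lay just below that of the separated males.

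COX1 was 4.53%, 4.70% and 4.84% of TPM in the 6-week females and 3.80%, 4.21% and 5.25% in the males, with separated means of 4.62% ± 0.680 and 4.60% ± 0.468 (SD, n = 12 each, without male 23). ATP8 was 6.71%, 7.41% and 8.95% in the 6-week females and 6.46%, 6.81% and 7.49% in the males, with separated means of 6.95% ± 0.947 and 6.84% ± 0.613 (SD, n = 12 each, without male 23). COX3 was 4.11%, 5.01% and 5.45% in the females and 3.96%, 5.40% and 5.40% in the males.

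With limma on log2(TPM + 0.5) over all libraries of cohorts 3 and 4, 6-week minus separated gave 0.016 ± 0.12 (COX3) to 0.19 ± 0.30 (COX2, SE) for 5 genes and 0.59 ± 0.72 (SE) for ATP8. None of the 6 was called (0 of 13110 genes, 0%, with 107 at an unadjusted p under 0.05; adjusted p = 1.00). Without separated male 23 the range was -0.047 to 0.09, with ATP8 at 0.09, so the larger ATP8 estimate rests on that 1 library, and COX2, COX3, CYTB and ATP6 changed sign.

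Against 2-week voles the 6-week difference was 0.16 ± 0.16 (COX3) to 0.26 ± 0.28 (COX2, SE) for 5 genes and 0.93 ± 0.95 (SE) for ATP8. Again 0 of 6 were called by limma (0 of 13141 genes, 0%, with 242 at an unadjusted p under 0.05; adjusted p = 1.00). Without 2-week female 15 and male 15 the estimates were 0.03 to 0.15, with ATP8 at 0.15. Cohort and treatment cannot be told apart in this comparison.

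The next comparison asks whether partners resembled each other. Of the 6 genes COX3 alone was called. The limma test used a moderated F over pair terms, after the means of cohort and sex had been removed. COX3 had F = 3.26 (adjusted p = 0.0130), followed by ATP6 with F = 2.36 (adjusted p = 0.0620), COX2 with 2.21 (0.0823), CYTB with 2.10 (0.0984), COX1 with 2.09 (0.0964) and ATP8 with 1.14 (0.483). The test called 1 of 6, where it called 6427 of 14151 genes (45.4%). Likeness of partners was thus common across the transcriptome, and the members' median F of 2.15 lay close to the 2.20 of all genes.

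The COX3 counts of both partners were close in several pairs. In pair 13 the female had 1079213 normalized counts and the male 1030387, both the highest of their 2-week groups. In pair 10 they were 558633 and 554601, and in pair 30 1125394 and 1106146. In pair 2 they were 286143 and 711174, the lowest 2-week female beside a male above the median. The median absolute log2 difference, after centring on cohort and sex, was 0.20 between partners (21 pairs) and 0.47 between non-partners of the same cohort (106 combinations).

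Across the 21 pairs the centred COX3 levels of female and male had r = 0.483 (permutation p = 0.0281, adjusted p = 0.0629) and rho = 0.399 (permutation p = 0.0857, adjusted p = 0.171), so the correlation did not pass after adjustment. With the 2 outermost pairs by female level left out r was 0.461, and within cohorts 2 and 4, with 7 pairs each, it was 0.651 and 0.488. Both partners lay on the same side of their means in 14 of 21 pairs. With 2 pairs in cohort 1, centring makes those 2 pairs mirror images of each other, and both were on opposite sides for all 6 genes.

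ATP8 had the lowest F and the lowest r over pairs. This r over pairs was -0.011 (permutation p = 0.985, adjusted p = 0.985; rho = 0.103, adjusted permutation p = 0.798), and -0.127 without the 2 farthest pairs, although within cohorts 2 and 4 it was 0.406 and 0.325. Its partners lay on the same side of their means in 14 of 21 pairs, as many as for COX3, while the other 4 genes had 11 (COX1) to 13 (ATP6 and CYTB). In pair 2 the female had 41990.0 normalized counts and the male 144319.8. Its median absolute log2 difference was 0.37 between partners and 0.33 between non-partners. The other 4 genes had r from 0.281 (CYTB) to 0.355 (ATP6) with adjusted permutation p from 0.285 to 0.413 (rho from 0.186 to 0.278, adjusted permutation p from 0.404 to 0.506), and partner differences of 0.30 (COX2) to 0.37 (ATP6) against 0.38 (CYTB) to 0.46 (COX2) between non-partners.

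**Figure D4:**
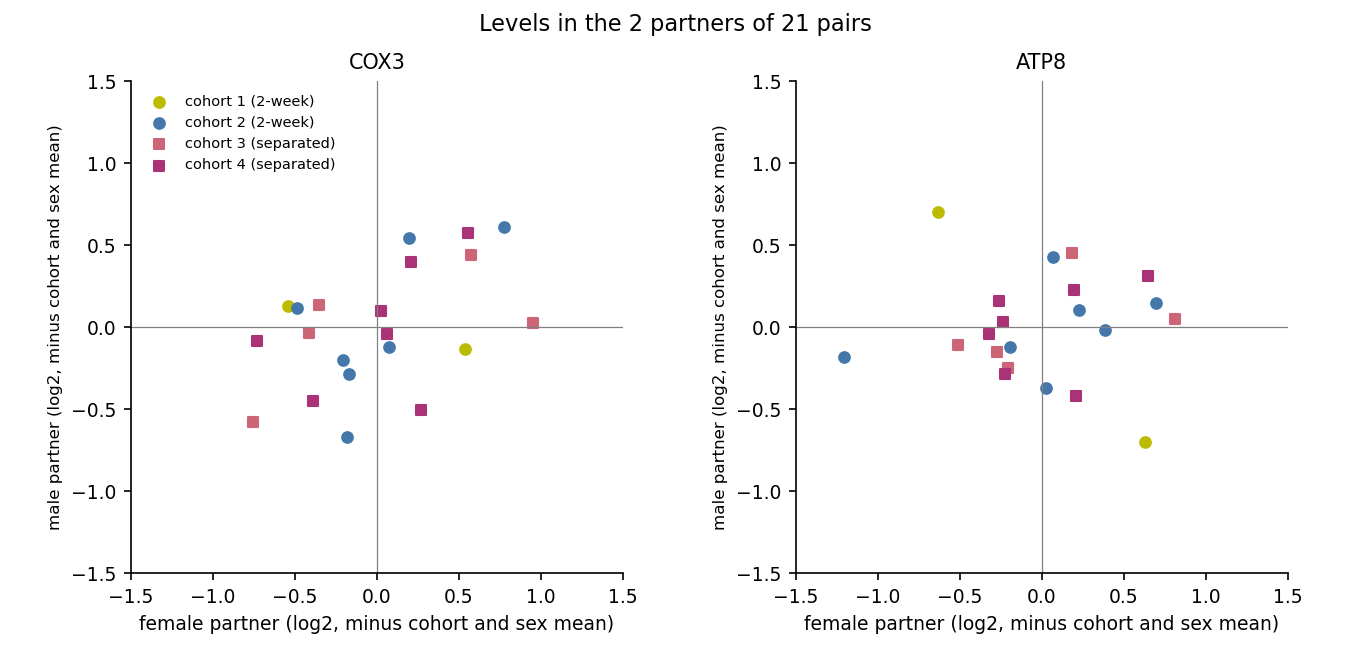
Log2 levels of COX3 and ATP8 in the female (horizontal axis) and male (vertical axis) of 21 pairs, each minus the mean of its cohort and sex. For COX3 r was 0.483, and for ATP8, where the 2 pairs of cohort 1 lie far apart, r was -0.011.

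Which pairs entered the F test changed its calls. In separated pairs alone 5 of the 6 passed, all but ATP8, with adjusted p from 0.0164 (CYTB) to 0.0465 (COX2); 41.3% of all genes passed there. In 2-week pairs alone 0 of 6 passed, with COX3 at an adjusted p of 0.130; 25.8% of all genes passed. The difference between the treatments was not tested. Without cohort 1, the 4 libraries of pairs 2 and 8, the same 5 passed with adjusted p from 0.00376 (COX3) to 0.0251 (COX2). There 49% of all genes passed. Without cohort 2, 0 of 6 passed, against 36.8% of all genes.

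The call of COX3 was lost when reads on genes and the fragment index were added as covariates (adjusted p = 0.344, with 17.6% of all genes called) and when the first principal component was added (adjusted p = 0.878, with 0.0353% called). It was also lost in TPM (adjusted p = 0.108, with 43.1% of all genes called). Partner likeness of the log2 read ratios to COX1 was not detected: r ran from -0.321 (CYTB) to 0.421 (ATP8) and rho from -0.345 (CYTB) to 0.343 (COX3), with adjusted permutation p from 0.158 to 0.944. Without the 2 farthest pairs the ATP8 ratio had r = 0.239. It was 0.861 within cohort 2 and -0.311 within cohort 4.

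The genes most like the 6 were those of the same genome. Each gene's log2 level was correlated with the mean of the 6 over 42 libraries after group means were removed, as a measure of likeness with no test. The 7 complex I genes and the 2 ribosomal RNAs filled ranks 1 to 9, with r from 0.878 to 0.980. Outside the 37 the 2 most alike identifiers were ENSMOCG00000000679 with r = 0.792 and ENSMOCG00000014520 with r = 0.760. The 2 transfer RNA positions that passed the filter were not among the 50 most alike.

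The 3 libraries outside the normalized table had a summed share of 7.82% (2-week female 15), 8.68% (2-week male 15) and 7.47% (separated male 23) of TPM, while the other 48 ranged from 18.4% to 37.02%. The authors named the normalized table as one of quality samples without the 6-week voles, and the criterion is not given in the sources used here. The female and male numbered 15 are partners. Read totals cannot be recovered for these libraries, so their depth is unknown and their values carry no counting interval.

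The loss was far from even across the 6 genes. ATP8 made up 0.0231%, 0.0329% and 0.0119% of TPM in the 3 libraries, in the order above, where the other 48 had 3.23% to 9.98%. Those values lie 302-, 212- and 585-fold below the median of the others. COX3 was least affected, with 2.42%, 2.78% and 3.19% against 3.03% to 6.22%, or 2.05-, 1.78- and 1.55-fold below the median. In separated male 23 it lay above 1 of the 48 others, and that was the only value of the 6 genes in these libraries inside the range of the others.

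COX1 had 1.964%, 2.25% and 1.80% of TPM against 2.91% to 5.88% in the others, and lay 2.29-, 2.00- and 2.50-fold below their median. ATP6 had 1.89%, 2.10% and 1.82% against 3.80% to 8.98%, or 3.53-, 3.18- and 3.66-fold below. Each was thus lowered to a like extent across the 3 libraries, and ATP6 was lowered more than COX1 in each library. COX2 and CYTB were lowered more in separated male 23 than in the pair numbered 15. COX2 had 0.879%, 0.834% and 0.307% (4.22-, 4.44- and 12.1-fold below the median). CYTB had 0.645%, 0.683% and 0.340% (3.86-, 3.64- and 7.32-fold below).

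TPM ratios within a library do not depend on its total, but they do depend on the lengths used for the genes. Those lengths are unknown for the 3 libraries, since reads per TPM cannot be computed there. The TPM ratio of ATP8 to COX1 was 0.0118, 0.0146 and 0.00662 in the 3 libraries and 1.11 to 2.13 in the other 48. That of COX2 to COX1 was 0.447, 0.370 and 0.171 against 0.681 to 0.962, and that of CYTB to COX1 was 0.328, 0.303 and 0.189 against 0.471 to 0.643. The ratio of COX3 to COX1, at 1.23, 1.23 and 1.77, was within the range of the others (0.908 to 1.37) in the pair numbered 15 and above it in separated male 23. The ratio of ATP6 to COX1, at 0.961, 0.931 and 1.01, lay below all others (1.28 to 1.78).

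All 7 complex I and both ribosomal RNA positions were lower as well. In each library the 4 protein genes with the shortest relative lengths lay farthest below the median, ATP8 lowest of all. The complex I positions with relative lengths of 0.0842 and 0.115, ENSMOCG00000000027 and ENSMOCG00000000025, lay 32.7- and 16.5-fold below the median in 2-week female 15 and 125- and 78.0-fold below it in separated male 23. Short genes outside the 37 were not lower on balance, among genes with at least 50 reads in each of the 42 libraries with recovered reads. Those with a relative length under 0.1 (29 genes) had a median log2 difference of 0.86, 0.93 and 0.71 above the other libraries, and those from 0.1 to 0.2 (98 genes) of 1.19, 1.39 and 1.13 above. Those over 1.6 (5004 genes) had 0.26, 0.10 and 0.33. Of the 29 shortest, 31.03%, 31.03% and 27.6% were lower. TPM has a fixed total, and the 37 identifiers together made up 11.5%, 12.6% and 9.87% of it, where the median of the other libraries was 48.003%, which by itself raises all other genes by 0.77, 0.75 and 0.79 on the log2 scale. The comparison by length was added after the data had been seen, and what set these libraries apart was not tested.

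**Figure D5:**
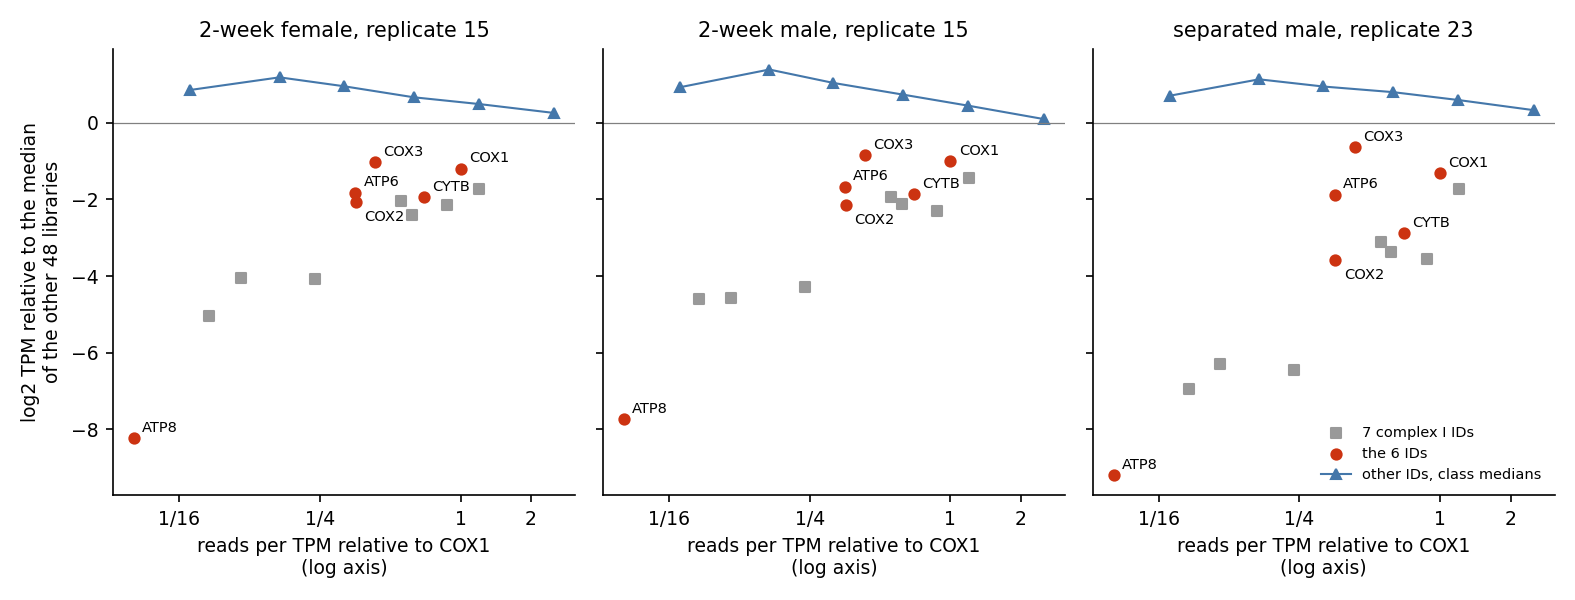
Log2 TPM in each of the 3 libraries relative to the median of the other 48 (vertical axis) against relative length, as reads per TPM relative to COX1 (horizontal log axis). Circles are the 6 genes and squares the 7 complex I genes. Triangles are medians, by length class, of other genes with at least 50 reads in each of the 42 libraries with recovered reads. ATP8, the shortest, lies lowest in each panel, while the triangles lie above 0.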

How the data were processed

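Polyadenylated RNA of 1 nucleus accumbens per vole was sequenced in 51 libraries, per the labels. The authors' deposited table of normalized counts holds, for 42 libraries, a signal that equals reads divided by 1 size factor per library (0.647 to 1.57). All values (100%) were whole multiples of 1 step within 0.01 of a read, so reads were recovered. The authors' second deposited table holds TPM for 51 libraries. DESeq2 and DESeq appear, with no version, per the submitters' processing notes. The aligner, counter, build and annotation were not given in the sources used here. In the case of 2-week females 9 and 15 labels and table columns disagree on which is in the normalized table, and the columns were followed.

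None of the identifiers (0 of 23038) matched the RefSeq table of the species (26397 genes, assembly MicOch1.0, 0 on the mitochondrial chromosome). Lists of nuclear subunits and cell type markers therefore could not be used, the tissue was not checked against markers, and no sequence is shown. The rule for named genes was to name the 6 always, to give other mitochondrial positions as counts and up to 2 identifiers, and to name the 2 most alike outside the 37. The members and lists were chosen with earlier results of these data known.

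Normalized counts were tested with limma 3.58.1 (R 4.3.3; trend and robust eBayes) on log2(value + 1), with a mean of at least 10 and 4 treatment-by-sex means. TPM was tested on log2(TPM + 0.5), with a mean of at least 1, with terms for sex and, against separated voles, for cohort. Differences are on the scales just named, which understate changes of low genes. The scripts were tested on simulated data. Alternatives included edgeR 4.0.16 and DESeq2 1.42.0 on recovered reads. The labels name partners as pairs, so replicate numbers pair the libraries by design; limma's duplicateCorrelation gave 0.396 for partners across genes. Labels do not describe technical replicates, and each library is 1 animal.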

Additional observations from a re-analysis of the deposited data

Results flagged for a closer look

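Groups of 4 to 10 libraries were searched for a single value far from the rest, by the gap to its nearest neighbour relative to the group's range. Of 42 groups and genes searched, 11 values stood out, and chance gives about 1 in 20 groups. The search covered share of reads, normalized count and share of TPM, so the same libraries entered on each scale. The 11 belong to 2 voles, and the genes of a library are not independent.

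Of these, 5 belong to 2-week female 13, which had the highest normalized count of its group for COX1 (2414825), COX2 (740820), ATP6 (1347079), CYTB (965954) and the sum of the 6 (6668738). Its partner, male 13, was also high, with the highest COX3 of its group. Female 13 stood out on normalized counts only, not on share of reads or of TPM.

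The other 6 belong to 2-week male 15, which is absent from the normalized table and had the lowest share of TPM of its group for COX1 (2.25%), COX2 (0.834%), ATP8 (0.0329%), ATP6 (2.10%), CYTB (0.683%) and the sum (8.68%). In the group of its partner, female 15, no value passed this rule. The separated groups hold over 10 libraries and were not searched.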

How the results depend on the processing

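Of 1560 recomputed log2 differences (60 results), 91 changed sign and 1469 did not. The larger count does not measure stability, since many of the 1560 could not change. Sex differences within 1 treatment, for example, stay the same when a pair of the other treatment is left out. An estimate of exactly 0 was counted as unchanged. None was called by limma, edgeR or DESeq2 in these settings. With the pair as a replicate block 0 of the 6 were called in any comparison; the averaged estimates stayed at 0.14 to 0.21 with adjusted p from 0.723 to 0.822, all genes called fell from 465 to 8, and ATP8 in 6-week minus separated moved to 0.87. The pairing changed no call of the 6. The number called for partner likeness was 1, where 45.4% of all genes were called. It became 0 with reads and fragment index as covariates (17.6% of all genes) and 0 with the first principal component (0.0353%). It was also 0 in 2-week pairs (25.8%), 0 without cohort 2 (36.8%) and 0 in TPM (43.1%). In separated pairs it was 5 (41.3%) and without cohort 1 it was 5 (49%). Without the 3 libraries outside the normalized table, the summed share in TPM averaged 26.9% in 2-week females, 29.9% in 2-week males, 29.9% in separated females and 29.9% in separated males (with them 24.99%, 27.8%, 29.9% and 28.2%), against a total corrected for length. The causes of these changes were not tested.

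Signs turned as follows. In separated minus 2-week, quantile normalization gave COX2 -0.13, COX3 -0.0048 and CYTB -0.053 averaged; COX2 -0.082 and COX3 -0.0056 in females; and COX2 -0.19, ATP6 -0.018, COX3 -0.0041 and CYTB -0.12 in males, with COX3 at 0.0015 for male minus female effect. The main estimate of COX1 in males was 3.1e-06 ± 0.20 (SE), so its sign carries no weight, and 20 of its 39 alternatives kept it. COX1 in males became -0.035 in TPM, -0.014 as share of all reads, -0.075 with the first principal component, -0.020 without cohort 1, -0.015 without cohort 4, -0.012 in edgeR and -0.013 in DESeq2. The component also gave COX2 -0.016 and CYTB -0.019. ATP8 in males became 0.00076 as share of reads outside the 37, 0.035 with array weights, 0.046 without cohort 2 and 0.0054 without cohort 4.

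For male minus female in separated voles, COX1, COX2, ATP8, COX3 and CYTB became -0.030, -0.052, -0.022, -0.014 and -0.013 in edgeR and -0.030, -0.053, -0.023, -0.015 and -0.014 in DESeq2. Without cohort 3 they became -0.068, -0.11, -0.080, -0.046 and -0.012, and ATP6 -0.034. COX2 and ATP8 became -0.014 and -0.016 in TPM, COX2 -0.0036 as share of all reads, and COX2, ATP8 and CYTB -0.10, -0.072 and -0.082 after quantile normalization. For 6-week minus separated without male 23, COX2, ATP6, COX3 and CYTB became -0.0081, -0.047, -0.016 and -0.025.

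Leaving out 1 pair or library at a time gave, in males, COX1 -0.065 to 0.080, COX2 -0.013 to 0.15, ATP8 -0.12 to 0.056 and CYTB -0.015 to 0.13. For male minus female in separated voles it gave COX1 -0.045 to 0.099, COX2 -0.066 to 0.088, ATP8 -0.036 to 0.077, COX3 -0.019 to 0.11 and CYTB -0.021 to 0.099. For 6-week minus separated it gave ATP6 -0.0076 to 0.12 and COX3 -0.030 to 0.060.

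Counting error was small beside the spread between libraries, in which animal and library preparation cannot be told apart. Names are inferred, the split of reads between ATP8 and ATP6 is not known, the TPM of ATP8 rests on a very short effective length, and treatment cannot be told apart from cohort.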
